A study of Mus musculus with 4 samples.

Results

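A set of 10 integrin genes that encode receptors for extracellular matrix were followed by RNA sequencing in libraries labelled as duct cells of the mouse pancreas. The members are the alpha subunits Itga1, Itga2, Itga3, Itga5, Itga6 and Itgav and the beta subunits Itgb1, Itgb4, Itgb5 and Itgb6. They were chosen by gene symbol, with earlier results of these data known, from the subunits that epithelial and stromal cells use to hold matrix. All 10 were found among the 52535 gene models of the count files, and all 10 passed the filter on low counts. The comparison is between 2 libraries labelled KO, from C57BL/6 mice with floxed alleles of both Lats1 and Lats2 and the Sox9-CreER transgene, and 2 libraries of wild-type C57BL/6 mice (WT). LATS1 and LATS2 are the Hippo pathway kinases that hold YAP and TAZ, a pair of transcriptional co-activators, in check, and Sox9-CreER is a Cre recombinase switched on by tamoxifen in cells that express Sox9. The question is which of these integrins differ in libraries labelled as duct cells when both kinases are targeted. The sources used here give neither the age of the mice, nor the time after induction, nor how the cells were isolated. They also do not say whether replicates are separate animals. The p-values therefore reflect only how far these samples vary, which may be technical.

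An integrin is a pair of 1 alpha and 1 beta subunit that spans the plasma membrane, with matrix bound outside and the actin or keratin cytoskeleton joined inside. ITGB1 is the most widely shared beta subunit and pairs with many alpha subunits. With ITGA1 or ITGA2 it binds collagen, with ITGA3 or ITGA6 laminin, and with ITGA5 fibronectin. ITGA6 also pairs with ITGB4 in hemidesmosomes, the junctions that tie keratin filaments to the basement membrane. ITGAV pairs with ITGB1, ITGB5, ITGB6 and other beta subunits and recognises the Arg-Gly-Asp (RGD) sequence of fibronectin, vitronectin and the latent form of TGF-beta. ITGB6 is a subunit of epithelia and is best known for activating latent TGF-beta.

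Stretches upstream of transcription starts are shown for Itgb1, the shared beta subunit, for Itgb5, the member with the largest point estimate when all libraries were used, and for Itga1, the member that did not pass the test. Sequences are from RefSeq on build GRCm38.p6, written 5′ to 3′ on the strand of the gene, and end at the base before the start. Capitals mark the letters GGAATG, the hexamer bound by the TEAD partners of YAP, or TGANTCA, the AP-1 site, which were searched on both strands. The first is Itgb1 at chr8:128685404-128685653 on the plus strand, the second Itgb5 at chr16:33829415-33829664 on the plus strand, and the third Itga1 at chr13:115101965-115102214 on the minus strand.
Itgb1: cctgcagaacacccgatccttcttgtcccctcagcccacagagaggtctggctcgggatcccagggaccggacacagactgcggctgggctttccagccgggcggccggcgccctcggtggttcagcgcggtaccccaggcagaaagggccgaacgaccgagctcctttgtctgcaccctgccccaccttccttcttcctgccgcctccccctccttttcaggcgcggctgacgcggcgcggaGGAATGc
Itgb5: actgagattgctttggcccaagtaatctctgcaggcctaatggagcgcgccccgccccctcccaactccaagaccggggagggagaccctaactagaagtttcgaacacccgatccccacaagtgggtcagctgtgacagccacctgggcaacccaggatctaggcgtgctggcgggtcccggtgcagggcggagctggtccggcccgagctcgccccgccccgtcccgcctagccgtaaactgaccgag
Itga1: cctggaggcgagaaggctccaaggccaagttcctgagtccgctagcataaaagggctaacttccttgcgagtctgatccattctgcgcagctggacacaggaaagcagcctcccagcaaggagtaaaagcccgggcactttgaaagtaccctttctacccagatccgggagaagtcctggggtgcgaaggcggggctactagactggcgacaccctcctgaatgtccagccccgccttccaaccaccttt
The table of promoter windows, each with 250 bases before and 50 after a start, held 10 windows for 8 of the members and none for Itga6 and Itgb4. Itgb1 had GGAATG at bases -7 to -2, counted from the start at +1. This hexamer was in 0 of the other 9 member windows, and in 14.7% of all 32851 windows. TGANTCA was in 1 member window, and in 7.81% of all windows. That window belongs to a second, internal start of Itga3, and the match lies at bases +13 to +19, in this stretch at chr11:95069169-95069197 on the minus strand.
Itga3, internal start: gggctggtgccTGAATCActggcttgctc
A match of letters is a description of the window and not a binding site, and the libraries do not tell which start was used.

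The libraries held 3566387 to 5925601 counts. Lats1 was at 69.6 and 78.7 CPM (counts scaled to library size with TMM factors) in KO 1 and KO 2, against 50.6 and 65.3 CPM in WT 1 and WT 2. Lats2 was at 162 and 121 CPM in KO 1 and KO 2, against 114 and 102 CPM in WT 1 and WT 2. Lats1 and Lats2 were thus not lower in KO 1 and KO 2 (edgeR adjusted p = 0.171 and 0.127), and Lats2 was called higher without KO 2 (log2 change 0.63, edgeR adjusted p = 0.036) and with no filter on low counts (0.47, edgeR adjusted p = 0.0433). Counts over whole gene models do not check the loss of single exons. Over all genes tested, 22.0% were called higher and 20.2% lower. Epithelial and duct markers such as Epcam, Krt19 and Sox9 were detected in every library, and 12 of 14 rose. They summed to 11985 and 12361 CPM in KO 1 and KO 2, against 2178 and 2421 CPM in WT 1 and WT 2. The markers went against libraries of duct cells alone in both groups. In WT 1 and WT 2 the duct channel Cftr was at 7.92 and 11.4 CPM, against 33.2 and 67.0 CPM in KO 1 and KO 2. The WT sums of acinar, smooth muscle and fibroblast markers exceeded the WT duct sum, and in KO 1 the fibroblast sum exceeded the duct sum. Fibroblast markers summed to 16537 and 11064 CPM in KO 1 and KO 2, against 3317 and 2830 CPM in WT 1 and WT 2. Macrophage markers summed to 6739 and 4915 CPM in KO 1 and KO 2, against 675 and 644 CPM in WT 1 and WT 2. B cell markers summed to 173 and 67.3 CPM in KO 1 and KO 2, against 2299 and 2406 CPM in WT 1 and WT 2. In KO 1 and KO 2, 12 of 12 macrophage markers, 10 of 12 fibroblast markers and 3 of 5 tested mesothelial markers were called higher. Called lower were 8 of 8 smooth muscle, 7 of 10 endothelial, 10 of 10 T and NK cell, 8 of 8 B cell, 5 of 6 Schwann cell and 1 of 2 tested platelet markers. That platelet marker was the integrin Itga2b, and the other tested one was not called (log2 change 0.93). The macrophage list includes the integrin Itgam, and the mesothelial list includes Krt19, which is also a duct marker. Of 7 islet markers, 3 were called lower and 1 higher. Acinar markers summed to 163 and 3806 CPM in KO 1 and KO 2, against 52454 and 94274 CPM in WT 1 and WT 2, and 3 of 13 tested were called lower (11 by DESeq2). Some of these marker counts moved with 1 library: 12 and 13 acinar and 2 and 2 Schwann cell markers were called lower without KO 1 and without KO 2, and 4 smooth muscle, 3 Schwann cell and 5 islet markers without WT 1. Without KO 2, 1 islet marker was called lower, and the islet marker called higher was not called without KO 1, KO 2 or WT 1.

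Of the 10 integrin genes, 9 rose in the libraries labelled KO, between 2.13-fold (Itga6) and 9.04-fold (Itgb5). Only Itga1, a collagen receptor subunit, was not called. By the edgeR quasi-likelihood test, adjusted over all genes, 9 members were higher and 0 lower, where 22.0% of the 13990 genes tested were called higher, 20.2% lower and 42.2% in either direction. With an unadjusted p under 0.05 the member counts were again 9 and 0, and DESeq2 also called 9 higher and 0 lower. The median log2 change of the members was 2.34, beside -0.01 over all genes tested. Leaving out any 1 library kept all 9 calls. In bulk samples like these, more cells of a type and more RNA per cell cannot be told apart.

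**Figure D1:**
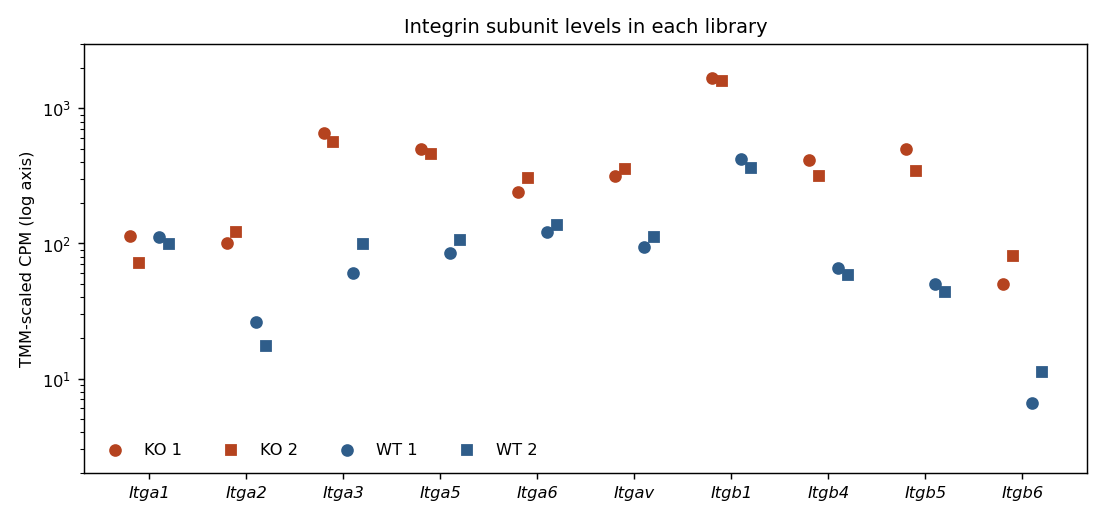
TMM-scaled CPM of the 10 integrin genes on a log axis, with 1 point for each library (red, KO 1 and KO 2; blue, WT 1 and WT 2). For 9 genes both KO points lie above both WT points, and for Itga1 the groups overlap. How often other genes separate in this way was not counted.

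Of the beta subunits, Itgb1 (mm10, chromosome 8, 128685654 to 128733200) had 8410 and 9934 counts in KO 1 and KO 2, against 1534 and 1628 counts in WT 1 and WT 2. On the CPM scale this was 1683 and 1599 in KO 1 and KO 2, against 419 and 364 in WT 1 and WT 2. The 2 libraries of each group lay close together and the groups were far apart, with a log2 change of 2.07 ± 0.19 SE, or 4.19-fold (edgeR adjusted p = 9.16e-05). Its hexamer-bearing upstream stretch, printed above, is the one match at a main start among the 8 members with windows.

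Itgb5 (chromosome 16, 33829665 to 33949153), the partner of ITGAV in a vitronectin receptor, was at 504 and 342 CPM in KO 1 and KO 2, against 49.7 and 43.8 CPM in WT 1 and WT 2. The libraries labelled KO differed more from each other than the WT libraries did, yet the lower of them stood far above both WT values. Its log2 change of 3.18 ± 0.23 SE, or 9.04-fold, was the largest of the 10 point estimates (edgeR adjusted p = 3.06e-05). That rank depended on single libraries: without KO 1 the log2 change of Itgb6 was 3.18 and that of Itgb5 2.87, and without WT 2 those of Itga3 and Itgb6 were 3.34 and 3.33 and that of Itgb5 3.09. The stretch upstream of Itgb5 held neither set of letters.

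Itgb6 (chromosome 2, 60598292 to 60722643), the epithelial partner of ITGAV, was the least abundant of the 4 beta subunits per kilobase of exon in both groups. It had 252 and 503 counts in KO 1 and KO 2, against 24 and 50 counts in WT 1 and WT 2. Scaled, it was at 50.4 and 81.0 CPM in KO 1 and KO 2, against 6.56 and 11.2 CPM in WT 1 and WT 2. The replicates of each group were spread more widely, in proportion, than those of Itgb1, and the groups did not overlap. The log2 change was 2.87 ± 0.34 SE, or 7.33-fold (edgeR adjusted p = 0.000402).

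Itgb4 (chromosome 11, 115974709 to 116008412), the hemidesmosome subunit with a long cytoplasmic tail, was at 415 and 318 CPM in KO 1 and KO 2, against 65.6 and 58.5 CPM in WT 1 and WT 2. Both values of the libraries labelled KO exceeded both WT values, and the log2 change was 2.56 ± 0.19 SE, or 5.91-fold (edgeR adjusted p = 3.99e-05). The Itgb4 model shares 537 exon bases with the opposite-strand model B230344G16Rik, which had at most 2 counts in any library.

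Among the alpha subunits that bind laminin, Itga3 (chromosome 11, 95044474 to 95076801) was at 654 and 563 CPM in KO 1 and KO 2, against 60.4 and 98.5 CPM in WT 1 and WT 2. Its WT libraries were spread more widely, in proportion, than its libraries labelled KO, and the groups did not overlap (log2 change 2.94 ± 0.25 SE, edgeR adjusted p = 8.17e-05). Itga6 (chromosome 2, 71745616 to 71858416) was at 241 and 307 CPM in KO 1 and KO 2, against 121 and 136 CPM in WT 1 and WT 2. Its groups were also separate, at a log2 change of 1.09 ± 0.18 SE, the smallest among the 9 genes that rose (edgeR adjusted p = 0.0017). Within each library, the ratio of Itga3 to Itga6 per kilobase of exon was 4.28 and 2.90 in KO 1 and KO 2, against 0.787 and 1.15 in WT 1 and WT 2. The ratio of Itgb4 to its only partner Itga6 was 2.21 and 1.33 in KO 1 and KO 2, against 0.695 and 0.553 in WT 1 and WT 2. In bulk libraries the transcripts of a ratio may come from different cells, and the part of each cell type in the Itga6 values was not tested.

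For the RGD receptors, Itga5 (chromosome 15, 103344286 to 103366763) was at 502 and 459 CPM in KO 1 and KO 2, against 84.4 and 106 CPM in WT 1 and WT 2. It rose 5.04-fold, with a log2 change of 2.33 ± 0.18 SE (edgeR adjusted p = 4.43e-05). Itgav (chromosome 2, 83724397 to 83806916) was at 317 and 357 CPM in KO 1 and KO 2, against 94.3 and 111 CPM in WT 1 and WT 2. It rose 3.28-fold, with a log2 change of 1.71 ± 0.17 SE (edgeR adjusted p = 0.000133). In both genes the values within a group were close and the groups lay apart. The Itgav model shares 634 exon bases with the opposite-strand model Gm13684, which had at most 10 counts in a library.

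Of the collagen receptor subunits, Itga2 passed the test and Itga1 did not. Itga2 (chromosome 13, 114833081 to 114932100) was at 101 and 121 CPM in KO 1 and KO 2, against 26.2 and 17.4 CPM in WT 1 and WT 2, and rose 5.09-fold (log2 change 2.35 ± 0.24 SE, edgeR adjusted p = 0.00014). Itga1 (chromosome 13, 114953096 to 115101964) was at 113 and 72.1 CPM in KO 1 and KO 2, against 111 and 99.0 CPM in WT 1 and WT 2. Its highest and lowest values both came from the libraries labelled KO, and it did not pass the test (log2 change -0.18 ± 0.23 SE, edgeR adjusted p = 0.541). Without KO 2 its log2 change was 0.14 (edgeR adjusted p = 0.61), so no direction is given. The ratio of Itga2 to Itga1 per kilobase was 2.33 and 4.37 in KO 1 and KO 2, against 0.617 and 0.459 in WT 1 and WT 2. ITGA1 is also made by smooth muscle, endothelial and Schwann cells and some T cells, and this choice of cell types is not complete. Markers of other cell types, such as fibroblasts, rose. Smooth muscle markers summed to 1605 and 953 CPM in KO 1 and KO 2, against 4773 and 4011 CPM in WT 1 and WT 2. Endothelial markers summed to 956 and 775 CPM in KO 1 and KO 2, against 1615 and 1495 CPM in WT 1 and WT 2. T and NK cell markers summed to 54.8 and 25.1 CPM in KO 1 and KO 2, against 1306 and 1381 CPM in WT 1 and WT 2, and Schwann cell markers to 19.6 and 17.7 CPM, against 167 and 103 CPM in WT 1 and WT 2. No marker of these 4 lists was at 0 in either group, and their part in the Itga1 values was not tested.

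**Figure D2:**
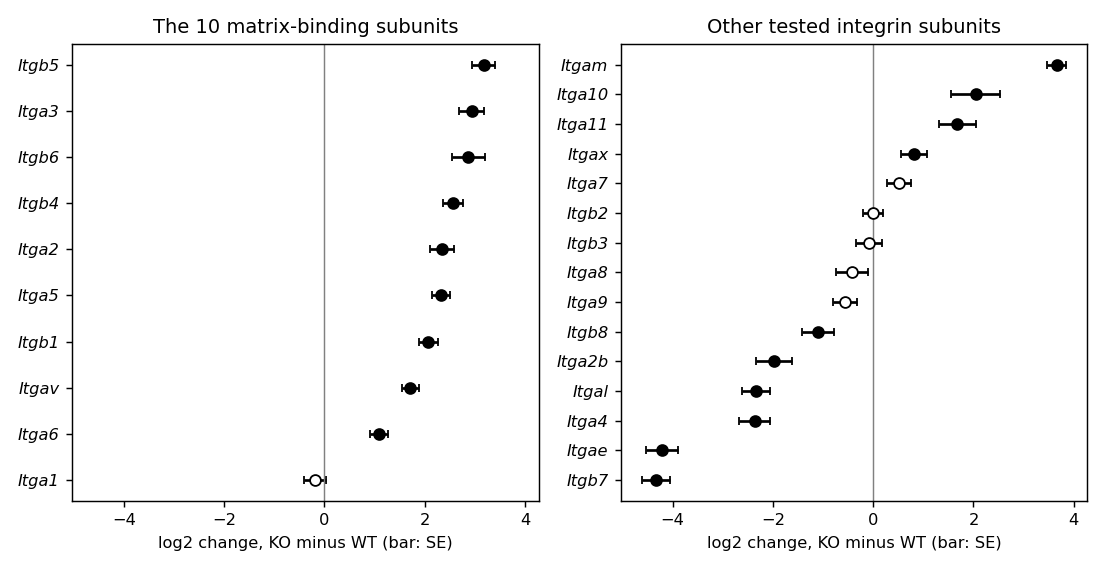
Log2 change, KO minus WT, with the standard error of the fit, for the 10 matrix-binding subunits (left) and the 15 other tested integrin subunits (right). Filled points passed the edgeR threshold of 0.05, as did 22.0% of all genes tested (higher) and 20.2% (lower). The left panel holds 9 filled points above 0 and Itga1 near 0, while the right panel holds 4 filled points above 0 and 6 below. The right panel also holds subunits that bind matrix, among them Itga10, Itga11 and Itgb3.

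Levels can be ordered between genes only per kilobase of exon (merged exons of GENCODE M21). In the libraries labelled KO, Itgb1 led with 402 ± 14.5 CPM per kilobase (SD, n = 2). Itgb5 at 119 ± 32.3, Itga3 at 107 ± 11.2 and Itga5 at 97.4 ± 6.08 followed, and each overlapped its neighbour in that order between libraries. Itgb4 stood at 52.3 ± 9.78, apart from Itgav at 31.4 ± 2.60 and Itga6 at 30.4 ± 5.17, which overlapped. Itga2 at 15.5 ± 2.00, Itgb6 at 9.24 ± 3.04 and Itga1 at 4.97 ± 1.55 came last, each apart from the next. In WT, Itgb1 led with 95.9 ± 9.59 CPM per kilobase and Itga5 followed with 19.3 ± 3.08. Itga6 at 14.3 ± 1.16, Itga3 at 13.9 ± 4.73 and Itgb5 at 13.2 ± 1.18 overlapped their neighbours, as did Itgav at 9.55 ± 1.11 and Itgb4 at 8.85 ± 0.708. Itga1 at 5.64 ± 0.454, Itga2 at 3.06 ± 0.872 and Itgb6 at 1.25 ± 0.459 closed the WT order. Itga1 has 18599 bases of merged exon, the most of the set, and a shorter transcript in these cells would place it higher.

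Shares within a library do not depend on the scaling between libraries. Among the 6 alpha subunits, Itga3 took 39.1% and 35.3% of the summed CPM per kilobase in KO 1 and KO 2, against 17.8% and 24.0% in WT 1 and WT 2. Itga6 took 9.14% and 12.2% in KO 1 and KO 2, against 22.6% and 20.97% in WT 1 and WT 2. Itga1 took 2.07% and 1.39% in KO 1 and KO 2, against 10.02% and 7.40% in WT 1 and WT 2. Itga5 took 34.7% and 33.3% in KO 1 and KO 2, against 28.7% and 29.9% in WT 1 and WT 2. Among the 4 beta subunits, Itgb1 took 66.5% and 71.9% in KO 1 and KO 2, against 80.9% and 80.0% in WT 1 and WT 2. Itgb5 took 22.9% and 17.6% in KO 1 and KO 2, against 11.02% and 11.07% in WT 1 and WT 2. Itgav took 10.1% and 11.9% in KO 1 and KO 2, against 14.7% and 14.4% in WT 1 and WT 2, and Itgb4 9.54% and 8.33% of the beta subunits, against 7.36% and 7.49% in WT 1 and WT 2. For these 8 subunits the groups did not overlap, while the shares of Itga2 and Itgb6 overlapped. No test was run on the shares, and how often other genes separate in this way was not counted.

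**Figure D3:**
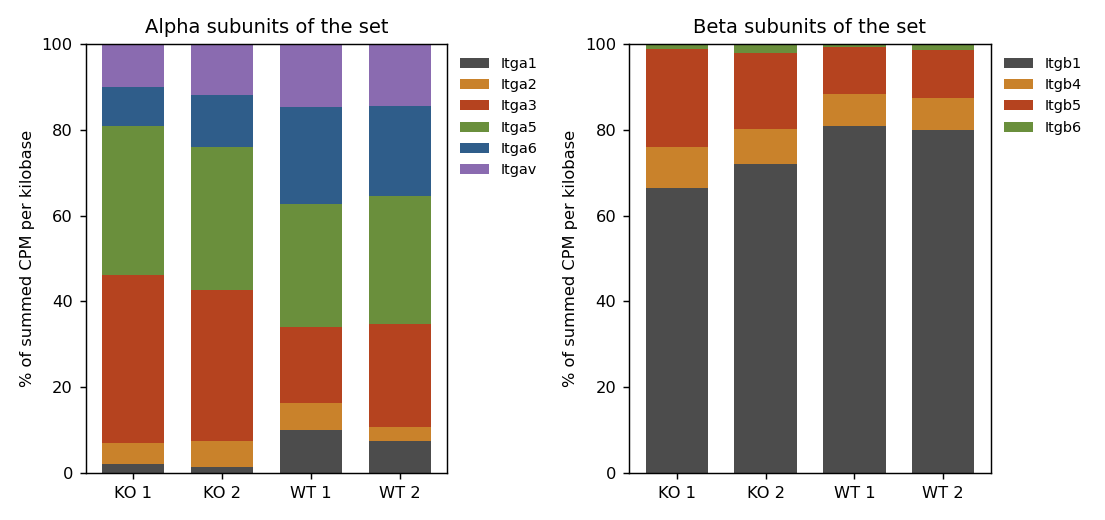
Share of each subunit in the summed CPM per kilobase of the 6 alpha subunits (left) and the 4 beta subunits (right), in percent, with 1 bar for each library. The Itga3 band is wider and the Itga6 and Itga1 bands narrower in KO 1 and KO 2 than in WT 1 and WT 2. The Itgb5 band is wider and the Itgb1 band narrower in KO 1 and KO 2. Itga6 and Itgb1 themselves rose in CPM.

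Epithelial genes rose in the same libraries, so integrin counts were also set against the summed counts of Epcam, Cdh1, Krt8 and Krt18 in each library. That sum was 41364 and 51135 counts in KO 1 and KO 2, against 4665 and 6895 counts in WT 1 and WT 2. Per 100 of these counts, Itgb4 had 5.02 and 3.87 in KO 1 and KO 2, against 5.14 and 3.80 in WT 1 and WT 2, and the ranges overlapped. Itga2 had 1.22 and 1.47 in KO 1 and KO 2, against 2.06 and 1.13 in WT 1 and WT 2, and Itgb6 had 0.609 and 0.984 in KO 1 and KO 2, against 0.514 and 0.725 in WT 1 and WT 2. Both overlapped between the groups. Itga3 had 7.90 and 6.85 in KO 1 and KO 2, against 4.74 and 6.40 in WT 1 and WT 2, and Itgb5 had 6.08 and 4.15 in KO 1 and KO 2, against 3.90 and 2.84 in WT 1 and WT 2. These were the 2 members whose values per count of that sum were higher in both libraries labelled KO than in both WT libraries. Itgb1 had 20.3 and 19.4 in KO 1 and KO 2, against 32.9 and 23.6 in WT 1 and WT 2, and Itga5 had 6.06 and 5.58 in KO 1 and KO 2, against 6.62 and 6.87 in WT 1 and WT 2. Itgav had 3.83 and 4.33 in KO 1 and KO 2, against 7.39 and 7.21 in WT 1 and WT 2. Itga6 had 2.92 and 3.73 in KO 1 and KO 2, against 9.52 and 8.83 in WT 1 and WT 2, and Itga1 had 1.36 and 0.876 in KO 1 and KO 2, against 8.70 and 6.42 in WT 1 and WT 2. For these 5 genes both values per count of that sum in the libraries labelled KO lay below both WT values. The order depended on which epithelial genes were used. Krt8 and Krt18 made up 85.5% and 78.0% of the sum in KO 1 and KO 2, against 74.8% and 74.5% in WT 1 and WT 2, and rose 6.12-fold and 6.90-fold, beside 3.79-fold for Epcam, 4.47-fold for Cdh1 and 3.07-fold for Krt19. Other denominators were therefore added after these values were seen. Per 100 counts of Epcam and Cdh1, Itgb1 had 140 and 88.3 in KO 1 and KO 2, against 130 and 92.6 in WT 1 and WT 2, and Itga5 had 41.7 and 25.4 in KO 1 and KO 2, against 26.2 and 27.0 in WT 1 and WT 2, so both overlapped. Per 100 counts of Krt19, Itgb1 had 185 and 199 in KO 1 and KO 2, against 137 and 145 in WT 1 and WT 2, and Itgb4 had 45.8 and 39.7 in KO 1 and KO 2, against 21.4 and 23.4 in WT 1 and WT 2. With Krt19, 7 members were higher in both libraries labelled KO, Itgav overlapped, and Itga1 and Itga6 were lower. With all 14 epithelial and duct markers, 2 were higher, 4 overlapped and 4 were lower. Under all of these denominators Itga3 and Itgb5 were higher and Itga1 and Itga6 lower in both libraries labelled KO, and the other 6 members changed their order with the denominator. No test was run on these ratios, and how often other genes separate in this way was not counted. Macrophages and fibroblasts are among the other cells that make ITGB1, ITGB5, ITGA5 and ITGAV, and this choice of cell types is not complete. Markers of other cell types, such as smooth muscle and endothelium, fell. Macrophage markers summed to 6739 and 4915 CPM in KO 1 and KO 2, against 675 and 644 CPM in WT 1 and WT 2, and fibroblast markers to 16537 and 11064 CPM, against 3317 and 2830 CPM in WT 1 and WT 2. No marker of either list was at 0 in a group, and the part of these cells in the integrin values was not tested.

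**Figure D4:**
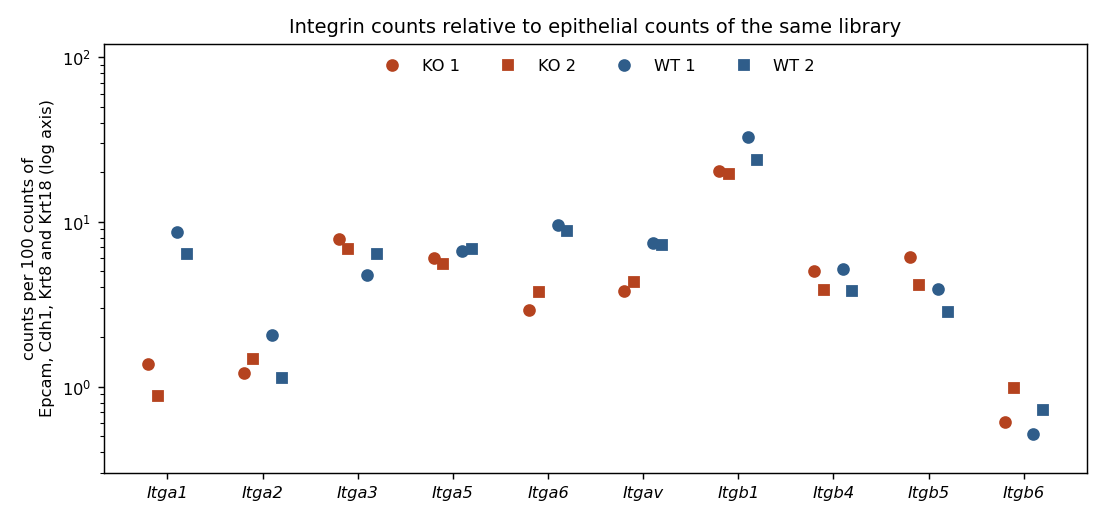
Counts of each integrin gene per 100 counts of Epcam, Cdh1, Krt8 and Krt18 in the same library, on a log axis (red, KO 1 and KO 2; blue, WT 1 and WT 2). Itga3 and Itgb5 are higher and Itga1 and Itga6 lower in both libraries labelled KO, as with the other denominators tried. Here Itga5, Itgav and Itgb1 are lower and Itga2, Itgb4 and Itgb6 overlap, which changed with Epcam and Cdh1, with Krt19 or with all 14 markers as the denominator.

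The other 16 integrin subunits, some of which also bind matrix, moved in both directions. Of 15 tested, 4 were called higher and 6 lower, with a median log2 change of -0.42. Among all genes tested, 22.0% were called higher and 20.2% lower. Itgam, the alpha subunit of a macrophage integrin, was at 330 and 304 CPM in KO 1 and KO 2, against 22.1 and 27.9 CPM in WT 1 and WT 2 (12.6-fold, edgeR adjusted p = 1.27e-05). Its beta partner Itgb2, shared by all leukocytes, was at 294 and 205 CPM in KO 1 and KO 2, against 244 and 256 CPM in WT 1 and WT 2, and was not called. The lymphocyte subunits fell: Itgb7 20.1-fold, Itgae 18.5-fold, Itga4 5.14-fold and Itgal 5.05-fold (edgeR adjusted p at most 0.00123 for these 4). Itga2b, the platelet subunit and the only platelet marker called lower, fell 3.94-fold (edgeR adjusted p = 0.0028). Itgb8, another partner of ITGAV, was at 6.00 and 7.89 CPM in KO 1 and KO 2, against 14.7 and 15.2 CPM in WT 1 and WT 2. It was called lower (log2 change -1.10, edgeR adjusted p = 0.0224) but not when any 1 library was left out (edgeR adjusted p between 0.0592 and 0.128). Itgb3, the vitronectin receptor partner of ITGAV, was at 27.0 and 20.4 CPM in KO 1 and KO 2, against 28.1 and 22.1 CPM in WT 1 and WT 2, and was not called.

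Itga10 and Itga11, collagen receptor subunits of cartilage and fibroblasts, were low but called higher, at log2 changes of 2.05 and 1.68 (edgeR adjusted p = 0.0102 and 0.00709). Without KO 1 neither was called (edgeR adjusted p = 0.0726 and 0.077), and Itga10 was not called without KO 2 either (edgeR adjusted p = 0.0713). Itgax was called higher (log2 change 0.82, edgeR adjusted p = 0.0317) but not without KO 1, WT 1 or WT 2 (edgeR adjusted p = 0.199, 0.106 and 0.072), so without KO 1 the only one of the 16 called higher was Itgam. Itga7, Itga8 and Itga9 were not called (log2 changes 0.51, -0.42 and -0.57), and Itga9 was called lower without WT 2 (-0.80, edgeR adjusted p = 0.0454), with upper quartile scaling (-0.76, edgeR adjusted p = 0.0309) and with the replicate number as a block (-0.56, edgeR adjusted p = 0.027). Itgad had too few counts to test.

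Matrix ligands of these receptors were mostly higher, where 22.0% of all genes tested were called higher and 20.2% lower. All 10 tested collagen chains rose, with a median log2 change of 2.45, among them Col5a2 11.8-fold, Col1a1 6.71-fold and the basement membrane chain Col4a2 6.66-fold. Col1a1 was at 5751 and 3244 CPM in KO 1 and KO 2, against 720 and 620 CPM in WT 1 and WT 2. Fibroblast markers, a list that shares Col1a1, Col1a2 and Col3a1 with the collagens, had a median log2 change of 1.91, and their part in the collagen values was not tested. Of 11 laminin chains 9 rose and 0 fell, with 0 lower at an unadjusted p under 0.05 and 0 lower by DESeq2 (median log2 change 1.73). Lama1 rose 12.4-fold from few counts and Lamb1 7.27-fold. Lamb1 was at 604.5 and 567.3 CPM in KO 1 and KO 2, against 83.3 and 77.8 CPM in WT 1 and WT 2. Lama3 and Lamb3, laminin chains found in epithelial basement membranes, had log2 changes of 1.84 and 2.54 (edgeR adjusted p = 0.000185 and 8.41e-05).

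Of 12 tested RGD proteins and other ligands of the ITGA5 and ITGAV receptors, 10 rose and 1 fell (median log2 change 2.14). Of all genes tested, 22.0% were called higher and 20.2% lower. Ctgf, a matricellular protein, rose 38.0-fold and fibronectin (Fn1) 14.3-fold. Fn1 was at 10774 and 8184 CPM in KO 1 and KO 2, against 815 and 506 CPM in WT 1 and WT 2. Spp1, osteopontin, rose 12.9-fold but was not called without KO 1 or without KO 2 (edgeR adjusted p = 0.199 and 0.214), and its log2 change went to 4.57 without WT 2, beside 3.69 with all libraries. Mfge8 fell 1.44-fold (edgeR adjusted p = 0.048) but was not called without KO 2, WT 1 or WT 2 (edgeR adjusted p = 0.159, 0.282 and 0.176), with DESeq2 size factors (0.0585), with no filter (0.0511), with a filter of 1 CPM (0.0609) or with no robust estimation (0.0834). Vitronectin (Vtn), a plasma protein and the ligand of the ITGAV-ITGB5 receptor, was at 6.60 and 1.93 CPM in KO 1 and KO 2, against 237 and 69.9 CPM in WT 1 and WT 2, and did not pass (edgeR adjusted p = 0.0656). Vtn was called lower by DESeq2 (DESeq2 adjusted p = 3.5e-05) and by edgeR with no robust estimation, with the replicate number as a block, without WT 1 and without WT 2 (edgeR adjusted p at most 0.00368), and not called under the other 8 alternatives. DESeq2 called Mfge8 lower (DESeq2 adjusted p = 0.0333).

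Inside the cell, 16 of 25 tested adhesion adaptors rose and 1 fell, with a median log2 change of 0.67. The shares over all genes tested were 22.0% higher and 20.2% lower. Kindlin-1 (Fermt1), an epithelial protein that binds beta tails and activates integrins, rose 5.95-fold, Src kinase 3.92-fold and the actin crosslinker Actn1 3.53-fold. Talin (Tln1), which also activates integrins through the beta tail, was at 822 and 616 CPM in KO 1 and KO 2, against 708 and 787 CPM in WT 1 and WT 2, and was not called (edgeR adjusted p = 0.845). Tns4 was called lower from few counts (log2 change -1.84, edgeR adjusted p = 0.0485). Its change was -2.99 without KO 1 and -1.10 without KO 2, and it was not called without KO 2, WT 1 or WT 2 (edgeR adjusted p = 0.279, 0.0559 and 0.243). Without KO 1 the adaptors called higher numbered 10. The integrin-linked kinase Ilk had 9 and 15 counts in KO 1 and KO 2, against 1 and 0 counts in WT 1 and WT 2, and was not tested. Overlaps with other gene models were checked for the integrin members only, so these counts need not measure how much Ilk is made.

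Of 12 hemidesmosome and membrane partners, 6 rose and 2 fell (median log2 change 0.60), beside 22.0% and 20.2% of all genes tested. Galectin-3 (Lgals3) rose 4.90-fold, and the tetraspanins Cd9 and Cd151, which bind laminin receptors, 3.32-fold and 2.35-fold. The plakin Plec, which links ITGB4 to keratin, had a log2 change of 0.73 (edgeR adjusted p = 0.0167), and the related Dst one of 0.12 (edgeR adjusted p = 0.667). The tetraspanin Cd82 fell 2.36-fold. Col17a1, the transmembrane collagen of skin-type hemidesmosomes, had 2 and 4 counts in KO 1 and KO 2, against 10 and 20 counts in WT 1 and WT 2. It was called lower (log2 change -2.72, edgeR adjusted p = 0.0113) but not without KO 1, KO 2 or WT 2 (edgeR adjusted p = 0.117, 0.0842 and 0.122).

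**Figure D5:**
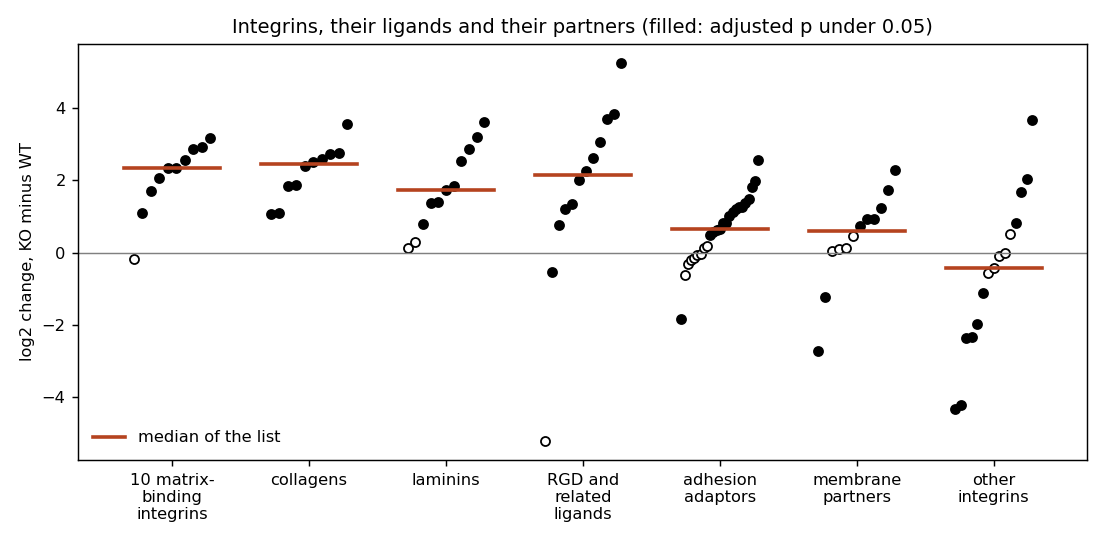
Log2 change, KO minus WT, of each tested gene in 7 lists, with the median of the list as a red line; filled points passed the edgeR threshold of 0.05. The members, collagens, laminins and RGD ligands have medians of 2.34, 2.45, 1.73 and 2.14, the adaptors and membrane partners 0.67 and 0.60, and the other integrins -0.42.

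The genes whose pattern over the 4 libraries was most like that of Itgb1, by Euclidean distance between centred log2 CPM, were the zinc transporter Slc39a14 at 0.061, the metalloprotease Adam9 at 0.064 and the semaphorin receptor Plxna1 at 0.065. Adam9 was at 296 and 285 CPM in KO 1 and KO 2, against 70.2 and 63.9 CPM in WT 1 and WT 2. The nearest member to Itgb1 was Itga2, at a distance of 0.45 and rank 253 of 13070 genes. For Itgb6 the nearest genes were Nkx2-2, Tdrd5 and AA467197, at distances of 0.125, 0.228 and 0.237. The first 2 were at 0 CPM in WT 1 and 0.224 CPM in WT 2. Their log2 WT values were largely set by the prior count of 2, so their nearness need not mean equal folds. The nearest member to Itgb6 was Itga3, at 0.646 and rank 66. With 4 libraries, this likeness rests on the difference between the groups and on 1 difference within each.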

How the data were processed

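Libraries were made from total RNA with a strand-preserving SMARTer kit, per the labels' protocols. For each library the authors deposited 1 file of unnormalized counts, with a row for each gene model. The submitters' processing notes name build mm10, TopHat and edgeR. The sources used here do not give the counting program, the annotation or the use of strand, so overlapping models may share reads. Start coordinates in the files count from 0 and are printed from 1.

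edgeR 4.0.16 in R 4.3.3 was used with filterByExpr, TMM scaling, a robust glmQLFit and glmQLFTest, with genotype as the only term. This tested 13990 genes on 2 residual degrees of freedom, with Benjamini-Hochberg adjustment over all of them and a threshold of 0.05. Log2 CPM for likeness used a prior count of 2. On counts simulated for 14005 genes, 190 of 200 genes changed 4-fold were recovered, with 7 false calls. The simulation gave every gene the same dispersion and changed only those 200 genes, while 42.2% of the real genes were called. Its rates therefore need not hold for these data. Alternatives were 3 other scalings, scaling without acinar genes, other filters, DESeq2 1.42.0, no robust estimation, a replicate block and leaving out each library. Ratios to other epithelial genes were added after seeing the data. Replicates differed by more than sampling noise (chi-square per degree of freedom 20.0 in KO and 20.1 in WT).

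The members and gene lists were chosen with earlier results of these data known. All members and, for each other list, up to 3 called genes with the largest rise and 2 with the largest fall are named, besides Lats1, Lats2 and every tested integrin. A gene that the rule takes is not reported here. Genes named outside this rule (Lama3, Lamb3, Vtn, Tln1, Ilk, Plec and Dst) were chosen after their values were seen. Depth differed by less than a factor of 2 between libraries, and no molecular identifiers are described.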

Additional observations from a re-analysis of the deposited data

How the results depend on the processing

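Under 13 alternatives the count of members called higher stayed at 9 and of members called lower at 0, and 129 of 130 member changes kept their direction and their side of the threshold. The exception was Itga1, at a log2 change of 0.14 without KO 2. Its range when 1 library was left out was -0.54 to 0.14, and it was not called in any of these runs. Leaving out 1 library gave 2265 to 2449 genes called higher over all genes and 1867 (without KO 2) to 2276 called lower, against 3078 and 2832 with all libraries. With upper quartile scaling, all genes together had a median log2 change of -0.20, which gave 2339 genes higher and 3594 lower, and the members' log2 changes were then lower by about the same shift. Same-numbered libraries did not pair by their data: across genes, the deviations of KO 1 and WT 1 from their group means correlated at 0.0355. With the replicate number as a block, 3466 genes were higher and 3190 lower, and 9 members were higher and 0 lower. Among list counts, 430 of 468 stayed within 1.5 times the reported count. Subunit shares from raw counts, without length, differed from those per kilobase. For Itga1 they averaged 4.84% in KO and 19.9% in WT, and for Itga3 32.0% in KO and 14.7% in WT. For integrin counts per epithelial count, 22 of 30 log2 differences between KO and WT moved by more than the spread between replicates with other epithelial genes, an alternative added after seeing the data. With 2 libraries in each group the spread rests on 2 degrees of freedom, and Itgb6, with 24 counts in WT 1, is the member that counting error limits most.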
